A study of Homo sapiens with 24 samples.

Results

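Mitochondrial ribosomal proteins were followed as the protein-coding genes whose annotated symbol begins with MRPL or MRPS and a digit. The deposited arrays measured 73 of them among 14884 named genes, 48 with an MRPL symbol (large subunit) and 25 with an MRPS symbol (small subunit). The RefSeq table lists 77 such genes, and MRPL12, MRPS6, MRPS18C and MRPS24 were not analysed here. Where a gene had several array features, the feature with the highest mean over the 24 arrays stood for it, which touched 4 genes. All 73 genes reached the level needed for testing, and the lowest mean of any of them in any group was 4.54 on the log2 signal scale.

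The mitochondrial ribosome translates the messages that mitochondrial DNA encodes, which are core subunits of the respiratory chain and of ATP synthase. Its proteins are made from nuclear genes in the cytosol and imported, and its RNAs come from the mitochondrial genome. The small subunit reads the message and the large subunit joins amino acids and feeds the new chain into the inner membrane. Part of the proteins descend from bacterial ribosomal proteins and the others were added in mitochondria.

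The cells were established human myeloid lines studied as acute myeloid leukaemia, 4 in number: HL60, KG1a, MOLM14 and U937. Every line was grown without drug or with 10 mM metformin for 24 h, and metformin is a biguanide known to inhibit respiratory complex I. KG1a and MOLM14 are labelled as high in oxidative phosphorylation (OXPHOS), the other lines as low, and a further label gives treated KG1a and MOLM14 the low status. The 8 groups held 3 Affymetrix arrays each, lettered A to C. The 4 lines are permanent cultures, 1 line each, so a class of lines is a pair of lines and not a sample of patients. Nothing in the labels tells whether the 3 arrays stand for 3 cultures, and the p-values therefore reflect array-to-array spread alone, which may be technical.

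Values are normalized signals read as log2, a base inferred from their range of 1.88 to 14.2 and not stated in words. A change is a difference of group means with its standard error (SE), and the test is limma's moderated test over 10641 genes with Benjamini-Hochberg adjustment and a threshold of 0.05. Each sample gave 250 ng of total RNA, so a value is a share of the labelled RNA, and fewer cells of a kind and less RNA per cell cannot be told apart. Of the blood cell markers, LCP1 lay between 9.76 and 10.3 in all 8 groups, and SPI1 between 7.18 and 8.10 in all but KG1a (4.65 untreated, 4.42 treated). CD34 was high only in KG1a (11.2) and FLT3 only in MOLM14 (10.4). Of the monocytic markers, CD14 stayed under 4.02, the median of all array features, in every group, and CSF1R lay between 4.12 and 5.99. The granule enzyme gene MPO lay under 4.02 in KG1a and U937. Of the epithelial markers, EPCAM lay between 3.87 and 4.04 and KRT18 between 6.60 and 7.62. Some myeloid markers had other group means with metformin: MNDA went from 6.87 to 5.65 and MPO from 8.93 to 7.62 in MOLM14, and MNDA from 6.53 to 5.89 in HL60. CSF3R went the other way, from 4.36 to 5.00 in HL60 and from 6.08 to 6.42 in MOLM14. In U937 it went from 6.11 to 6.39 and in KG1a from 4.74 to 4.87. Summed over the 5 myeloid markers, the log2 signal ran from 41.7 to 42.1 in untreated and 39.0 to 39.7 in treated MOLM14. The sums in HL60 were 37.2 to 38.0 and 36.7 to 37.2. In U937 they were 37.3 to 37.7 and 37.4, and in KG1a 18.9 to 19.2 and 19.0 to 19.4. Their part in the results on the ribosomal protein genes was not tested. Arrays HL60 control C (interquartile range 1.90) and U937 control C (1.99) had narrower spreads of values than the other 22 arrays, which lay between 2.09 and 2.31. U937 metformin A stood farthest from its own group among the treated arrays.

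Metformin lowered 36 of the 73 genes on the mean of the 4 lines and raised 0. Over all genes tested, 16.1% fell and 16.3% rose in the same comparison. The median change of the 73 genes was -0.13 against -0.01 for all genes tested, and 59 of the 73 changes were negative, with a range from -0.54 to 0.10. At an unadjusted p under 0.05 the moderated test gave 40 lower genes and 1 higher, against 20.8% and 20.5% of all genes tested. Of the large subunit genes 26 of 48 fell and of the small subunit genes 10 of 25 fell, with medians of -0.13 and -0.10. With each line taken as 1 value, 10 genes fell (2.35% of all genes tested): MRPL4, MRPL13, MRPL35, MRPL49, MRPL54, MRPL57, MRPS7, MRPS12, MRPS17 and MRPS34. That run is 1 of the 39 alternatives, and these 10 genes kept their call in the others as well. The other 26 falls were by definition lost in that run, and some, MRPL44, MRPL47 and MRPS28 among them, kept the call in 38 of the 39. Less stable were MRPL2, MRPL11, MRPL19, MRPL27, MRPL34, MRPL43 and MRPS23, with adjusted p between 0.0326 and 0.0417 in limma's test. Each of these lost the call in 10 to 13 of the 24 fits that left out 1 array.

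**Figure D1:**
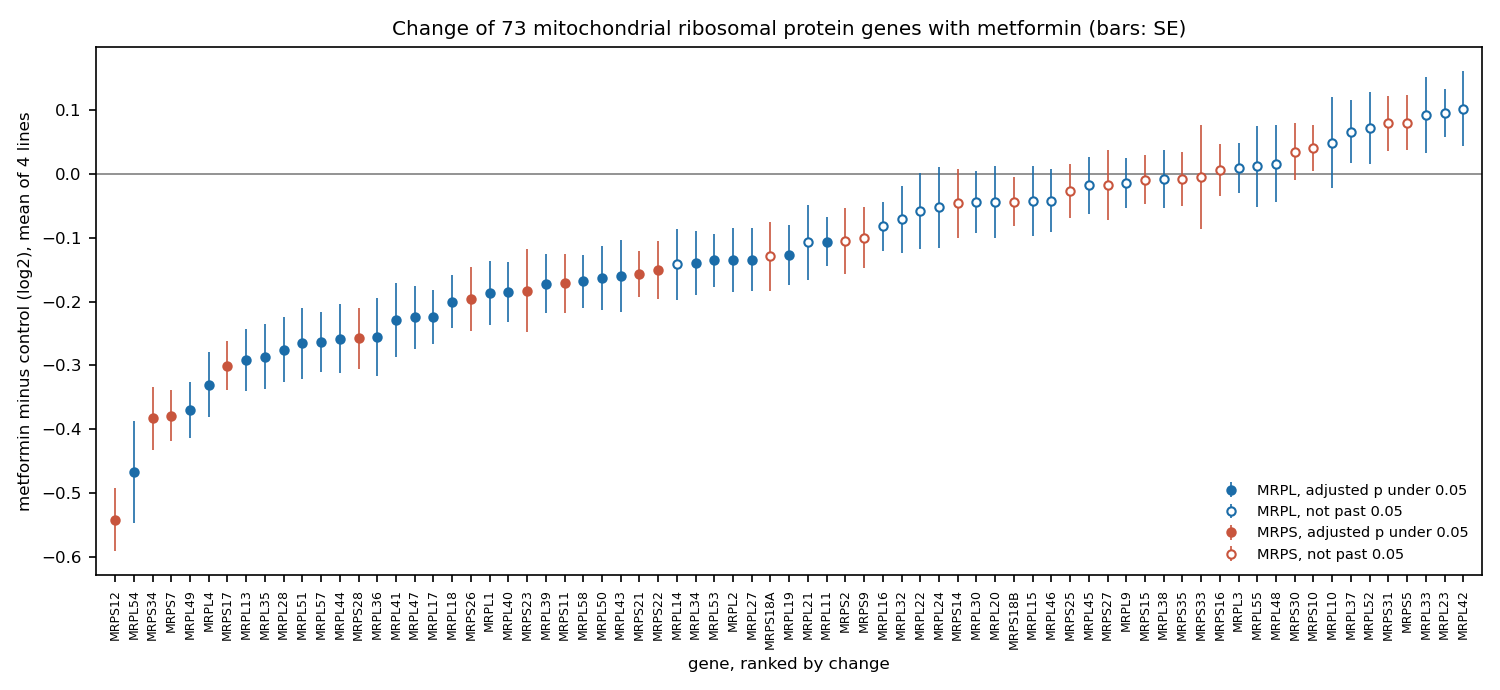
Change with metformin on the mean of 4 lines (log2, y axis) for each of the 73 genes, ranked along the x axis, with bars for the SE and filled points where the adjusted p is under 0.05. The 36 filled points all lie below 0 and run from MRPS12 at -0.54 to MRPL11 at -0.11.

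MRPS12, the homologue of the bacterial decoding-centre protein S12, fell most. In HL60 its log2 signal was 6.53, 6.58 and 6.72 in the controls and 6.04, 5.90 and 5.80 with metformin. In U937 it was 6.83, 6.87 and 6.67 against 5.95, 6.10 and 6.18. Every treated array of these lines lay below every control. In MOLM14 the signal was 7.27, 7.18 and 7.10 in the controls and 6.84, 6.66 and 6.78 with metformin. In KG1a it was 6.64, 6.54 and 6.54 against 6.09, 6.47 and 6.18. The groups did not overlap in any of the 4 lines. On the mean of 4 lines the change was -0.54 ± 0.05 (SE), which is 68.7% of the control level, with an adjusted p of 1.07e-08 in limma's test.

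MRPL54, a large subunit protein added in mitochondria, had the next largest fall. In HL60 it read 5.51, 5.62 and 5.42 in controls and 4.90, 5.35 and 4.91 with metformin. In U937 it read 5.22, 5.21 and 5.01 against 4.71, 4.65 and 4.27. Treated arrays were lower in both lines without overlap. In MOLM14 the values were 6.09, 5.52 and 5.87 against 5.07, 5.50 and 5.49, narrowly without overlap. In KG1a they were 5.39, 4.95 and 5.27 against 4.74, 4.77 and 5.13, and the groups overlapped. The mean change was -0.47 ± 0.08 (adjusted p = 7.77e-05 in limma's test).

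MRPS34, a small subunit protein added in mitochondria, changed by -0.38 ± 0.05 on the mean of 4 lines (adjusted p = 2.35e-06 in limma's test). Its HL60 controls read 9.38, 9.46 and 9.31 and the treated arrays 8.81, 9.02 and 8.79. In U937 the controls read 8.73, 8.78 and 8.79, and the treated arrays lay at 8.28 or below. Both low OXPHOS lines showed the widest gaps of this gene. In MOLM14 it read 8.82, 8.65 and 8.55 against 8.41, 8.33 and 8.42, without overlap. In KG1a it read 8.75, 8.54 and 8.82 against 8.38, 8.68 and 8.65, and the groups overlapped.

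MRPS7, the homologue of the bacterial protein S7 that organises the head of the small subunit, changed by -0.38 ± 0.04 (adjusted p = 1.01e-07 in limma's test). In HL60 it read 9.08, 9.06 and 8.94 in controls and 8.44, 8.37 and 8.31 with metformin. MOLM14 gave 8.65, 8.63 and 8.67 against 8.25, 8.30 and 8.36. These lines had tight groups that stood well apart. U937 gave 8.52, 8.47 and 8.51 against 8.24, 8.21 and 8.04, also without overlap. KG1a gave 8.28, 8.44 and 8.25 against 8.29, 8.05 and 8.14, where the groups overlapped.

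**Figure D2:**
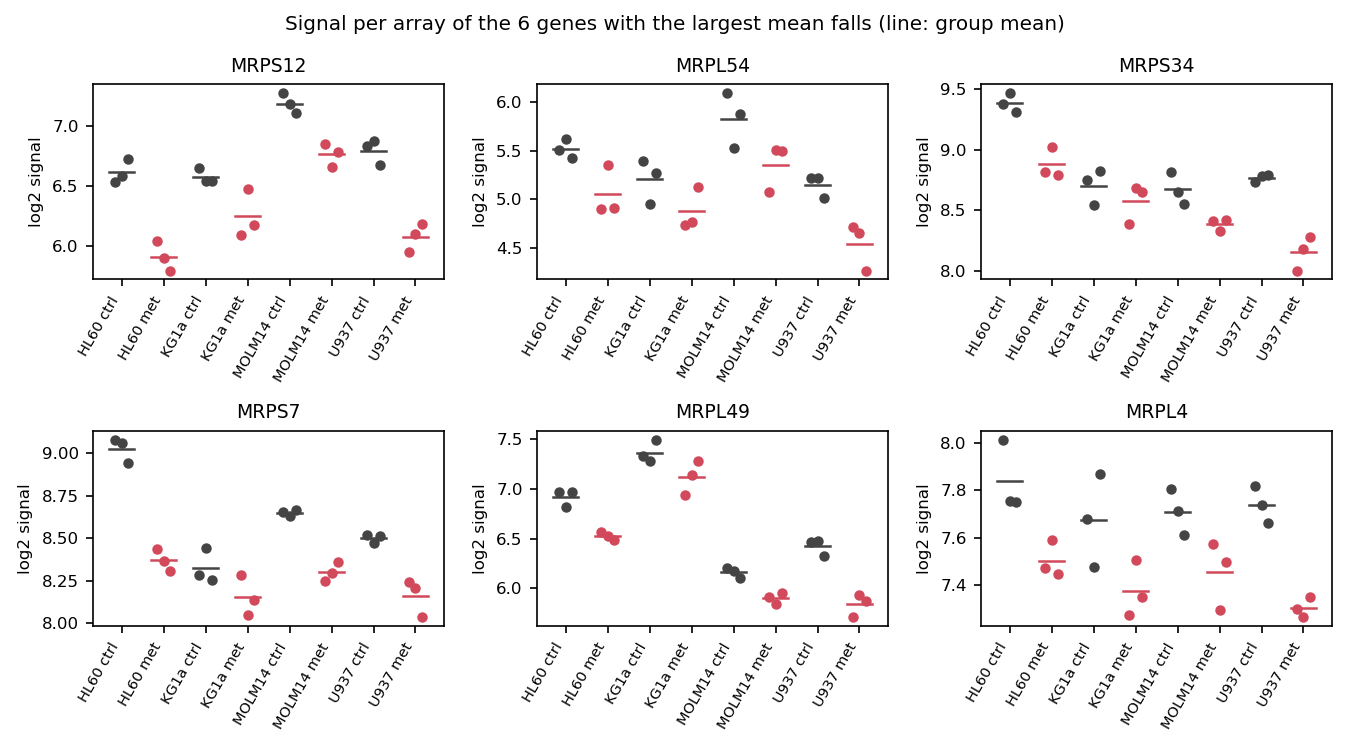
Log2 signal of each array (points) and group mean (lines) for the 6 genes with the largest mean falls, with controls in dark grey and metformin in red, each panel on its own y axis. MRPS12 is the gene of these 6 whose treated arrays lie below all controls in each of the 4 lines.

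The large subunit protein genes MRPL49, MRPL4 and MRPL13 and the small subunit gene MRPS17 completed the 8 largest falls. MRPL49, added in mitochondria, changed by -0.37 ± 0.04, and its U937 arrays ran from 6.33 to 6.48 in controls and from 5.71 to 5.93 with metformin. MRPL4, the homologue of bacterial L4, changed by -0.33 ± 0.05, with U937 controls between 7.66 and 7.82 and treated arrays between 7.27 and 7.35. In KG1a the groups of both genes overlapped. MRPS17, the homologue of bacterial S17, changed by -0.30 ± 0.04, from 7.17 to 7.21 in HL60 controls to between 6.70 and 6.86 with metformin, and overlapped in MOLM14. MRPL13, the homologue of bacterial L13, changed by -0.29 ± 0.05. Its treated arrays lay below all controls in each line, and in KG1a they ran from 7.41 to 7.62 against 7.67 to 7.82. The adjusted p of these 4 genes was at most 6.1e-05 in limma's test.

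Treated arrays lay below every control in all 4 lines for 4 genes, MRPL13, MRPL57, MRPS12 and MRPS28 (1.76% of all genes tested), and in at least 3 lines for 16 genes (5.88%). The line mean was lower with metformin in each of the 4 lines for 33 genes (16.8% of all genes tested) and higher in each for 1, MRPL23 (14.4%). Counted by line, groups did not overlap with the treated arrays lower for 25 genes in HL60 (16% of all genes tested), 22 in KG1a (13.7%), 27 in MOLM14 (13%) and 27 in U937 (16.3%). In the other direction the counts were 5 in HL60 (21.2%), 0 in KG1a (7.31%), 5 in MOLM14 (13.3%) and 2 in U937 (13.6%).

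For 65 of the 73 genes the RefSeq promoter table (GRCh38.p14, 250 bases before to 50 after the start) held a window. The sequences of the 3 genes with the largest mean falls are shown, over the 100 bases before the start, 5′ to 3′ on the gene's strand. Capitals mark the CCAAT box (CCAAT or its reverse complement) and the ETS-family motif (CCGGAAG or its reverse complement). MRPS12 lies at chr19:38930844-38930943 (+), MRPL54 at chr19:3762582-3762681 (+) and MRPS34 at chr16:1773135-1773234 (-).
MRPS12: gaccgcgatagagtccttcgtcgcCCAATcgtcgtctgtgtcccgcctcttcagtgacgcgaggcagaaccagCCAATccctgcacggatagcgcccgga
MRPL54: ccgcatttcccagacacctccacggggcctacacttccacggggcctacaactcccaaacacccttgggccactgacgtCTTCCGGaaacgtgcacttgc
MRPS34: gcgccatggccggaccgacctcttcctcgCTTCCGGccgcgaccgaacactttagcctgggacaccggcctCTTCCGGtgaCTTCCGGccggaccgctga
MRPS34 holds 3 ETS matches in this stretch, MRPL54 holds 1, and an ETS match of MRPS12 runs past its end. MRPS7, next in size of fall, had 0 ETS and 0 CCAAT matches in its whole window. Shared control of these genes was not tested.

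The ETS motif CCGGAAG stood in 28 of the 65 windows (43.1%) against 14.2% of 15842 protein-coding promoters of the same length, both strands searched. Among genes that fell on the mean of 4 lines it stood in 15 of 32 (46.9%), and among those not called in 13 of 33 (39.4%). The YY1 motif AAGATGGCG was in 18.5% of the windows against 2.74% of all promoters. It was in 2 of the 32 genes that fell (6.25%) and in 10 of the 33 not called (30.3%). The NRF1 motif, a palindrome with 1 free base, was in 12.3% against 8.57%, the E-box CACGTG in 7.69% against 8.88%, and the CCAAT box in 29.2% against 36.4%. TGATGNAAT, a form of the site bound by CEBP and ATF factors, was in 1.54% against 0.625%. These are letter matches, not measured binding.

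Ancestry was read from the unified names of ribosomal proteins, which place MRPS18A and MRPS18B with those added in mitochondria. By these names 20 of 42 proteins of bacterial origin fell and 16 of 31 added in mitochondria, beside 16.1% of all genes tested. By place in the structure, which puts MRPS18A and MRPS30 in the large subunit, these were 14 of 29 and 12 of 21 in the large subunit and 6 of 13 and 4 of 10 in the small subunit. Regions follow lists of general roles, which may leave out proteins that belong to a region. Of the 7 measured proteins listed for the central protuberance, the crown of the large subunit, 3 fell. These were MRPL18 (-0.20 ± 0.04), MRPL40 (-0.19 ± 0.05) and MRPL27 (-0.13 ± 0.05). MRPL38, MRPL46, MRPL48 and MRPL55 lay between -0.04 and 0.02. Of the 5 proteins listed around the exit tunnel, where the new chain leaves, MRPL47 fell (-0.22 ± 0.05). MRPL22, MRPL23, MRPL24 and MRPL45 of that list lay between -0.06 and 0.10. Of the 7 proteins listed for the small subunit head, MRPS7 fell, and MRPS9, MRPS10, MRPS14, MRPS31, MRPS33 and MRPS35 lay between -0.10 and 0.08. The shares of the listed proteins that fell, 20% at the exit tunnel and 14.3% in the head, lay near the 16.1% of all genes tested. They hold for these lists and not for whole regions.

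MRPL1, of the stalk that moves spent transfer RNA away, fell (-0.19 ± 0.05), while MRPL10, of the stalk that recruits translation factors, measured 0.05 ± 0.07. MRPL58, also called ICT1, is a peptidyl-tRNA hydrolase that rescues stalled ribosomes and sits in the large subunit. It fell by 0.17 on the log2 scale (adjusted p = 0.00278 in limma's test), and without KG1a the change was -0.11 and did not pass. MRPS18A and MRPS30 carry small subunit names. MRPS18A measured -0.13 ± 0.05 (adjusted p = 0.0697 in limma's test). MRPS30 measured 0.03 ± 0.04.

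Of the 4 genes with several array features, 3 had features that read differently. The 2 features of MRPS16 changed by 0.01 and -0.12 on the mean of 4 lines, and those of MRPS2 by -0.10 and -0.18. The second feature of MRPL44 had a mean of 3.57, under the median of all features, and changed by -0.06 against -0.26 for the feature used. The 7 features of MRPS18B held identical values.

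**Figure D3:**
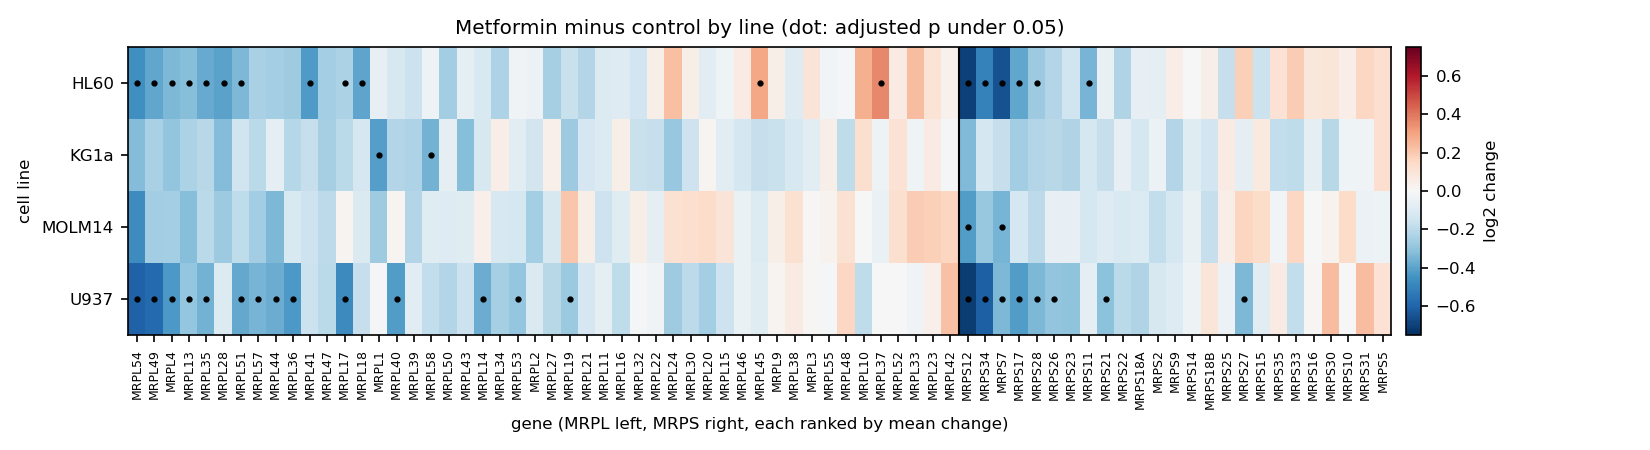
Change with metformin in each line (rows) for each gene (columns, MRPL to the left of the black line and MRPS to its right), as log2 differences from blue (lower) to red (higher), with dots where the adjusted p is under 0.05. Dots are dense in HL60 (18) and U937 (22) and sparse in KG1a (2) and MOLM14 (2). Of all genes tested, 9.56% fell in HL60 and 9.74% in U937, against 1.67% in KG1a and 2.57% in MOLM14.

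The lines differed in how many genes passed, among the members and among all genes tested. The counts do not rank the size of change: the median was -0.14 in KG1a with 2 falls and -0.09 in HL60 with 16. The 4 lines use separate control arrays, and the mean of 4 lines uses the arrays of all of them. In U937, a monocytic line, 22 of the 73 genes fell (9.74% of all genes tested) and 0 rose (7.46%), with a median of -0.17. At an unadjusted p under 0.05 limma gave 32 lower and 2 higher, against 16.2% and 13.7% of all genes tested. MRPS12 (-0.71 ± 0.10), MRPS34 (-0.61 ± 0.10) and MRPL54 (-0.61 ± 0.16) fell most. The call for MRPL54 was lost without metformin C (-0.47, adjusted p = 0.0714 in limma's test). The count of falls was 12 without control B, 13 without metformin A, 14 without control A and 10 in a fit of the 6 U937 arrays alone. The median was -0.12 without metformin A.

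In HL60, a promyelocytic line, 16 genes fell (9.56%) and 2 rose (15.5%), with a median of -0.09. The largest falls were those of MRPS12 (-0.70 ± 0.10), MRPS7 (-0.66 ± 0.08) and MRPS34 (-0.50 ± 0.10), with adjusted p values of at most 0.000516 in limma's test. The genes that rose were MRPL37, a large subunit protein added in mitochondria, and MRPL45, which sits at the tunnel exit and holds the ribosome to the inner membrane. MRPL37 read 9.53, 9.37 and 9.23 in controls and 9.73, 9.82 and 9.65 with metformin, a change of 0.36 ± 0.10 (adjusted p = 0.00868 in limma's test). MRPL45 read 10.49, 10.42 and 10.30 against 10.65, 10.68 and 10.74, a change of 0.29 ± 0.09 (adjusted p = 0.0186 in limma's test). Treated arrays lay above all controls for both genes in HL60. The pseudogene MRPL45P2 measured 0.59 higher in treated HL60, and its part in the MRPL45 value was not tested.

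HL60 results moved with control C, the array with the narrowest spread of values. Without it 16 genes fell, of which 13 were among the 16 above, 0 rose, and the median was -0.17. MRPL37 then measured 0.29 and MRPL45 0.24, and neither passed. MRPL45 also did not pass without metformin C (0.26, adjusted p = 0.0637 in limma's test) or in a fit of the 6 HL60 arrays alone. Quantile normalization gave 28 falls in HL60, the 16 among them, and a median of -0.19. The split over all genes turned there, from 1017 lower and 1649 higher to 1539 lower and 1278 higher. Setting each array's median to 0 gave 689 and 1806, and setting the median of the tested genes to 0 gave 1969 and 1130.

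**Figure D4:**
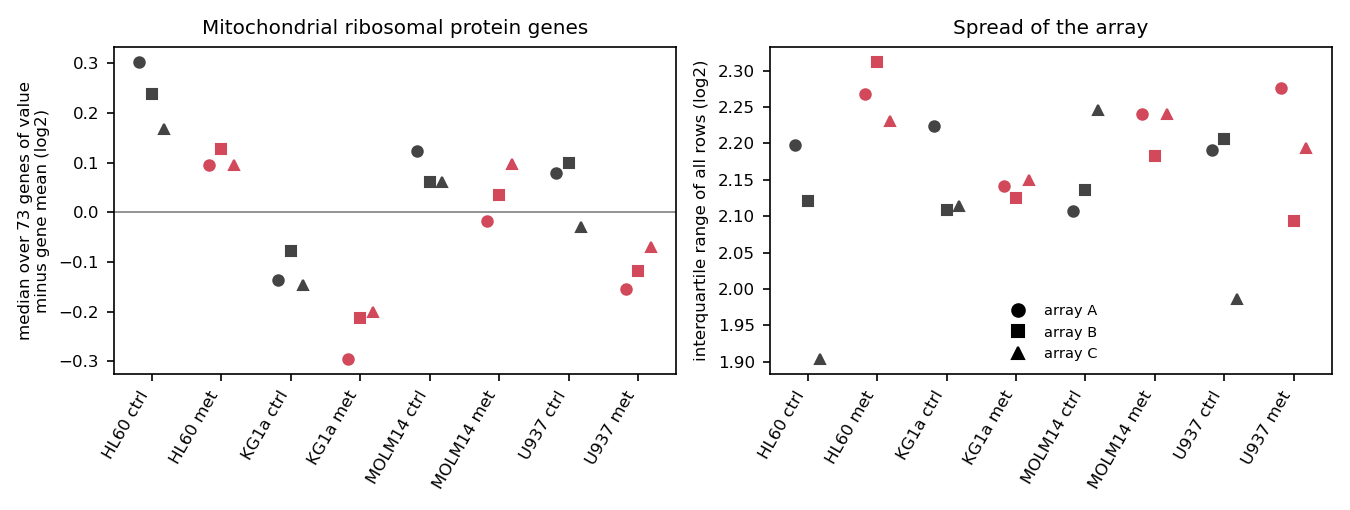
Left, the median over the 73 genes of each array's value minus the gene's mean over 24 arrays (log2). Right, the interquartile range of all features on that array. Controls are dark grey, metformin is red, and letters are shown by shape. HL60 control C is at 0.17 on the left, the lowest of its group, and at 1.90 on the right, the lowest of the 24.

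In MOLM14, a line of monocytic leukaemia, 2 genes fell (2.57%), MRPS12 (-0.42 ± 0.10) and MRPS7 (-0.35 ± 0.08), and 0 rose (2.48%). At an unadjusted p under 0.05 limma gave 14 lower and 2 higher, against 8.8% and 8.95% of all genes tested, and the median was -0.09. The call for MRPS12 was lost without control A (-0.38, adjusted p = 0.0659) or metformin B (-0.37, adjusted p = 0.0711), and that for MRPS7 without metformin A (-0.32, adjusted p = 0.0516), all in limma's test. In KG1a, an immature CD34-positive line, 2 genes fell (1.67%), MRPL1 (-0.41 ± 0.10) and MRPL58 (-0.36 ± 0.08), and 0 rose (0.818%). At an unadjusted p under 0.05 limma gave 24 lower and 0 higher, against 10.3% and 5.17% of all genes tested. The median was -0.14, and 62 of 73 changes were negative, against 56.4% of all genes tested. MRPL1 read 7.24, 7.20 and 7.18 in controls and 6.75, 6.98 and 6.65 with metformin, and MRPL58 8.77, 8.83 and 8.76 against 8.37, 8.48 and 8.45. Neither pair of groups overlapped.

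Both KG1a calls were lost without any of 5 of the 6 arrays, the exception being metformin B. Without control A, control B, control C or metformin A 0 members fell in KG1a, without metformin C 1 other did, and in a fit of the 6 KG1a arrays alone 0 did. The changes themselves stayed between -0.43 and -0.33 under those fits, with adjusted p between 0.0503 and 0.13 in limma's test. Over all genes the KG1a split was 178 lower and 87 higher, and 113 and 152 with arrays centred on the median of the tested genes. In at least 2 lines, 12 of the 73 genes fell past the threshold (5.32% of all genes tested).

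Whether the response differed between lines was tested directly. Taking the mean change of the 2 high OXPHOS lines less that of the 2 low ones, 2 genes were higher (2.05% of all genes tested), MRPS34 (0.35 ± 0.10, adjusted p = 0.0333 in limma's test) and MRPS12 (0.33 ± 0.10, adjusted p = 0.0429). A higher value here means a smaller fall in KG1a and MOLM14: MRPS12 changed by -0.33 and -0.42 there against -0.70 in HL60 and -0.71 in U937, and MRPS34 by -0.13 and -0.28 against -0.50 and -0.61. None was lower (4.64% of all genes tested), with 7 lower and 8 higher at an unadjusted p under 0.05 in limma, where all genes tested gave 13.3% and 8.35%. The difference for MRPS34 did not pass with arrays centred on their medians (adjusted p = 0.0615) and that for MRPS12 did not pass there (adjusted p = 0.0748) or with no filter on low values (adjusted p = 0.057), both in limma's test. MRPS12 also did not pass with the replicate letter as a block (adjusted p = 0.0516) in limma's test. Leaving out together the C controls of HL60 and U937 and treated U937 A, neither passed (adjusted p = 0.0745 for MRPS12 and 0.0664 for MRPS34, limma). Without any 1 of the 4 lines neither gene passed. Of the 24 fits that left out 1 array, 14 lost the call for MRPS12 (HL60 control B and C and metformin B and C, KG1a control B and C and metformin B, MOLM14 control B and C and metformin A and C, U937 control A and B and metformin A). For MRPS34 11 did (HL60 control B and metformin A and C, KG1a control B and metformin B and C, MOLM14 control B and C and metformin A and C, U937 metformin A). Over all genes the split of this difference was 494 lower and 218 higher, 476 and 350 on quantile-normalized values, and 378 and 442 when the tested genes were centred.

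A moderated F test for any difference between the 4 lines called 4 of the 73 genes (10% of all genes tested). MRPS7 changed by -0.66 ± 0.08 in HL60, -0.17 ± 0.08 in KG1a, -0.35 ± 0.08 in MOLM14 and -0.34 ± 0.08 in U937. MRPL19, the homologue of bacterial L19, measured -0.28 ± 0.09 in U937 and 0.21 ± 0.09 in MOLM14. MRPL17, the homologue of bacterial L17, measured -0.48 ± 0.08 in U937 and 0.02 ± 0.08 in MOLM14. The fourth was MRPL45, with 0.29 ± 0.09 in HL60 and -0.17 ± 0.09 in KG1a. The adjusted p of these 4 genes lay between 0.0298 and 0.0497 in limma's test. Leaving out 1 array lost the call in 7 of 24 fits for MRPS7, each time an HL60 or KG1a array, in 13 for MRPL19, 17 for MRPL17 and 18 for MRPL45.

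Untreated cells of the 4 lines differed in 68 of the 73 genes by the F test (83.2% of all genes tested). The range between the highest and lowest line mean had a median of 0.68 (log2) over the members and 0.76 over all genes tested. HL60 had the highest mean of the 4 lines for 33 genes (26.2% of all genes tested), MOLM14 for 19 (22.4%), KG1a for 11 (26.3%) and U937 for 10 (25.2%). KG1a had the lowest mean for 34 genes (29%), MOLM14 for 18 (27.5%), U937 for 14 (25.1%) and HL60 for 7 (18.3%). KG1a carries the high OXPHOS label and HL60 the low one.

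The median difference between untreated lines depended on the pair. KG1a minus HL60 had a median of -0.36 over the 73 genes, with 58 negative, against -0.05 over all genes tested. KG1a minus U937 had a median of -0.14, MOLM14 minus HL60 of -0.11 and MOLM14 minus U937 of 0.02, with 35 of 73 negative. Within the classes, KG1a minus MOLM14 had a median of -0.18 and HL60 minus U937 of 0.22. The 3 untreated HL60 arrays lay between 0.17 and 0.30 above the genes' means and the 3 of KG1a between -0.15 and -0.08.

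For untreated high lines less untreated low lines, 40 genes were lower (33.5% of all genes tested) and 16 higher (28.4%), with a median of -0.19 against -0.03 for all genes. By subunit 23 of 48 MRPL genes and 17 of 25 MRPS genes were lower. Without HL60 24 were lower and 17 higher, and the median was -0.05. Without KG1a 24 were lower and 22 higher, and the median was -0.04. Without MOLM14 40 were lower and 10 higher, and the median was -0.28. Shares of all genes tested are not given for these fits. Asking for 1 sign in all 4 pairs of a high and a low line left 24 lower genes (16.1% of all genes tested) and 4 higher (11.5%).

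MRPS28, the small subunit protein related to bacterial S1, showed the widest difference. It read 6.73, 6.56 and 6.68 in HL60, 7.11, 7.21 and 7.01 in U937, 8.60, 8.79 and 8.48 in KG1a and 8.23, 8.13 and 8.23 in MOLM14. The class difference was 1.53 ± 0.07 (adjusted p = 5.29e-16 in limma's test), and no array of a high line reached down to a low line. MRPS27, a pentatricopeptide repeat protein of the small subunit, read 7.90, 8.37 and 8.29 in MOLM14 and between 7.17 and 7.47 in the other lines. Its difference of 0.54 ± 0.08 was 0.14 without MOLM14 and did not pass. MRPL11, the homologue of bacterial L11, differed by 0.49 ± 0.05 and MRPL57, added in mitochondria, by 0.42 ± 0.07.

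MRPL40 of the central protuberance had the largest difference in the other direction. It read 7.21, 6.95 and 6.85 in HL60, 6.67, 6.67 and 6.68 in U937, 6.10, 6.10 and 6.17 in KG1a and 5.85, 5.98 and 5.79 in MOLM14. The difference was -0.84 ± 0.07 (adjusted p = 5.03e-11 in limma's test), and the classes did not overlap. MRPS17 differed by -0.55 ± 0.05, MRPL30 by -0.52 ± 0.07, MRPS26 by -0.52 ± 0.07 and MRPL58 by -0.48 ± 0.06. Of these 9 genes, MRPS17, MRPL40, MRPS26 and MRPL58, lower in the high lines, fell with metformin on the mean of 4 lines. So did MRPS28, MRPL11 and MRPL57, higher in the high lines. Of all members 36 of 73 fell, beside 16.1% of all genes tested. Both comparisons use the same control arrays, so this overlap is not independent and no link is drawn from it. Other wide ranges followed no class. MRPL44, a large subunit protein with a ribonuclease III fold, had line means from 6.82 in KG1a to 8.46 in MOLM14, both high lines, with a class difference of -0.05 ± 0.08.

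**Figure D5:**
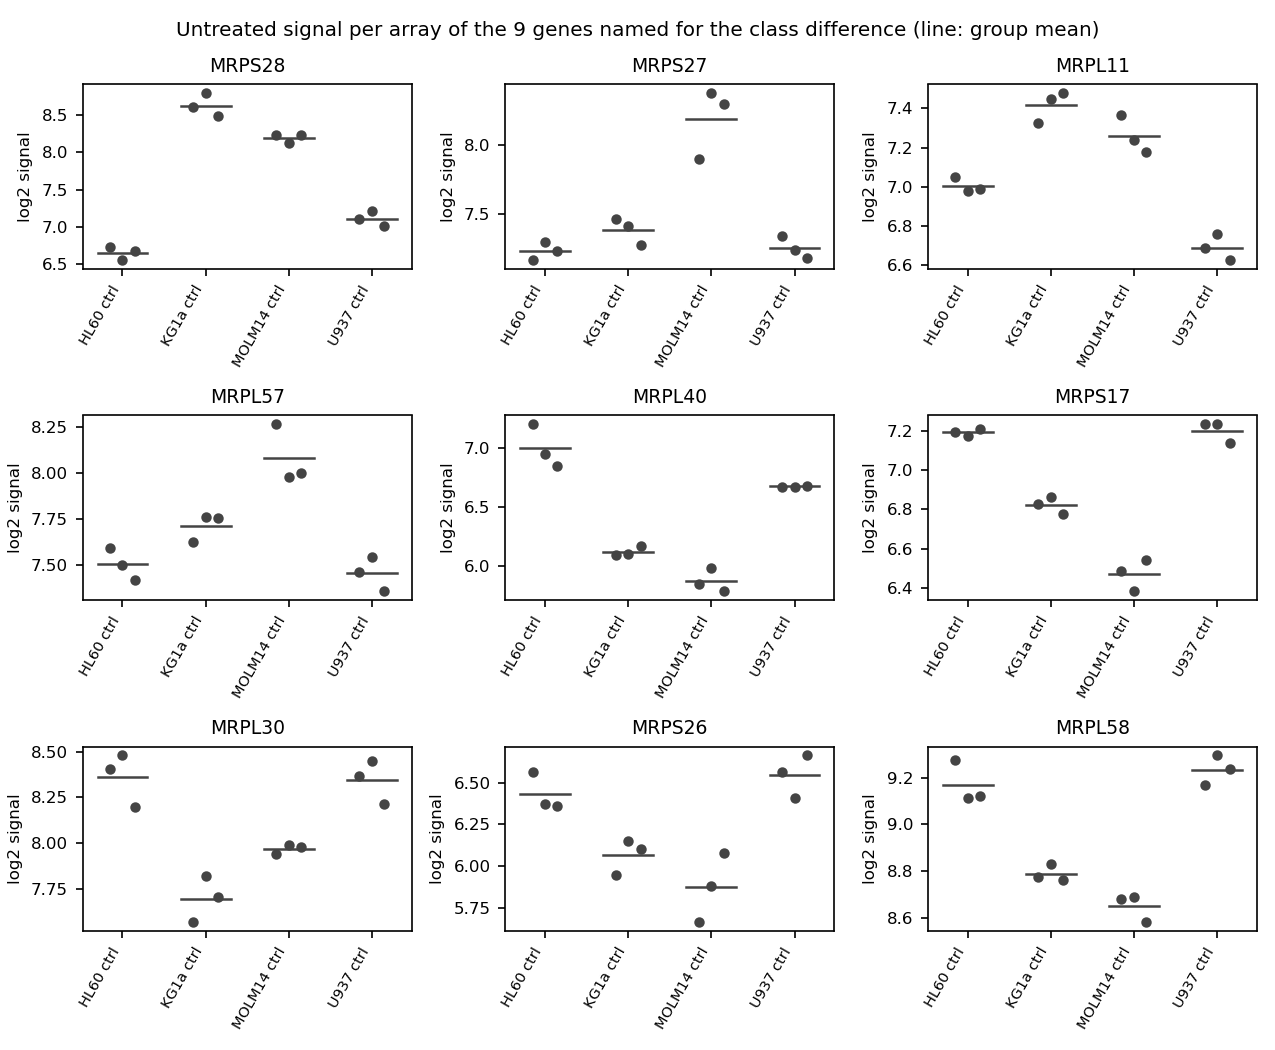
Log2 signal per untreated array (points) and group mean (lines) in the 4 lines for 9 genes, each panel on its own y axis. Among genes called with 1 sign in all line pairs, these are the 4 higher in the high lines and the 5 largest of the 24 lower. MRPS28 separates KG1a and MOLM14 (8.13 and above) from HL60 and U937 (7.21 and below), and MRPL40 runs the other way.

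On the mean of 4 lines other genes of mitochondrial translation were called in both directions. Of 3 tested ribosomal proteins without an MRP symbol, CHCHD1 of the small subunit fell (-0.21 ± 0.06, adjusted p = 0.0113 in limma's test), while DAP3 measured 0.05 ± 0.04 and PTCD3 0.09 ± 0.05. Of 22 assembly factors tested out of 25 listed, 7 fell and 4 rose, beside 16.1% and 16.3% of all genes tested. The GTPases NOA1 (0.34 ± 0.05) and MTG1 (0.34 ± 0.07), which act in ribosome assembly, rose. RCC1L (-0.31 ± 0.04) and MPV17L2 (-0.33 ± 0.06), which also act in assembly, fell. NOA1 rose by 0.72 ± 0.09 in HL60, where 16 members fell.

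Of 12 translation factors tested out of 17 listed, 3 fell and 3 rose, beside the same shares of all genes. The release factor gene MTRF1 (0.19 ± 0.05) and the ribosome recycling factor gene MRRF (0.26 ± 0.08) rose. TACO1 (-0.23 ± 0.06), which activates translation of a cytochrome oxidase subunit, and the release factor gene MTRF1L (-0.15 ± 0.05) fell. Of 6 genes of mitochondrial transcription and its regulators, YY1 fell (-0.12 ± 0.05, adjusted p = 0.0488 in limma's test) and the other 5 did not pass. This is a share of 16.7%, near the 16.1% of all genes tested. Among the other 5, NRF1, an activator of nuclear genes for mitochondria, measured -0.10 ± 0.05 and MYC 0.10 ± 0.04. By line, MYC passed as higher in HL60 (0.27 ± 0.08) and MOLM14 (0.29 ± 0.08). It measured 0.08 ± 0.08 in KG1a and -0.24 ± 0.08 in U937, and neither passed. Mitochondrial aminoacyl-tRNA synthetases were not analysed here.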

How the data were processed

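The authors deposited 1 table of log2 expression values from 24 Affymetrix arrays. Labelling used 250 ng of total RNA, per the labels' protocols, and the tool listed in the submitters' processing notes is Partek. Background correction, normalization, annotation and genome build are steps not given in the sources used here, and the log2 scale was inferred from the range and the near-equal array medians (3.99 to 4.08). Of 53617 rows, 16098 name 1 gene in the platform annotation, 0 name several and 37519 are unnamed here. All 16098 gene identifiers matched the RefSeq table (GRCh38.p14), and 0 symbols changed.

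Each gene was represented by its brightest row, and 10641 genes with a group mean of at least 4.02, the median of all rows, were tested. A model of 8 group means, with 16 residual degrees of freedom, was fitted in limma 3.58.1 (R 4.3.3) using empirical Bayes moderation. Adjusted p-values are Benjamini-Hochberg values over all tested genes. The fit was tested on simulated data. Plots come from matplotlib 3.10.9 (Python 3.11.15).

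The members and gene lists were chosen with earlier results of these data known, and the lists follow textbook roles. Named members are the 8 largest mean falls, the 3 largest each way per line, the 5 largest each way for the class differences, the 3 smallest p of the F test and a fixed set (MRPL45, MRPL58, MRPS12, MRPS18A, MRPS30). Listed genes are named up to the 4 smallest p. MRPL35, MRPL44, genes of named regions and genes in counts of 5 or fewer were named after their values were seen where that rule does not reach them. Alternatives were other scalings, filters, rows per gene, moderation, a block for the replicate letter, fits without arrays or lines, and each line as 1 value. Arrays of a group correlated at 0.983 to 0.993 and shared no more than 5 identical rows, so none was counted as a duplicate.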

Additional observations from a re-analysis of the deposited data

Results flagged for a closer look

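The metformin change differed between the high OXPHOS lines (KG1a, MOLM14) and the low OXPHOS lines (HL60, U937) for MRPS12 by 0.33 (log2) and for MRPS34 by 0.35, by the test of that difference. MRPS12 kept this call in 16 of 38 alternatives and MRPS34 in 21 of 38. The change differed between any of the 4 lines, by the F test, for MRPS7 (F = 6.54), MRPL19 (F = 5.94), MRPL17 (F = 5.75) and MRPL45 (F = 5.56). MRPS7 kept the call in 26 of 34 alternatives, MRPL19 in 16, MRPL17 in 13 and MRPL45 in 13. The F test called 10% of all genes tested.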

How the results depend on the processing

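No called change listed here reversed in any alternative run, and 10 of the 36 mean falls, the 8 largest among them, kept their call in all 39. Without 1 array the count of members lower on the mean of 4 lines ran from 29 to 36, and with each line as 1 value it was 10. Members higher on the mean were 0 to 1 without 1 array, and 1 after centring each array, with every group mean at or above the median, leaving out 3 unusual arrays together (the C controls of HL60 and U937 and treated U937 A) and without KG1a.

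In HL60 28 members fell (median -0.19) after quantile normalization. With arrays centred on the median of tested genes, an alternative chosen after seeing the data, 29 fell (median -0.19) and 1 rose. Falls over all genes tested also went up, from 1017 to 1539 and 1969 in these runs. The HL60 median was -0.17 without the 3 arrays and -0.17 to -0.056 without 1 array, with 0 to 2 higher, and 1 rose in the fit of its 6 arrays alone. In KG1a 0 to 3 fell without 1 array, 0 in its 6 arrays alone, and 1 with centring on tested genes. In MOLM14 1 to 3 fell without 1 array, and 4 after quantile normalization, with trend and robust moderation and without the 3 arrays. Quantile normalization took the falls over all genes tested in MOLM14 from 274 to 374. In U937 12 to 21 fell and 0 to 1 rose without 1 array (median -0.20 to -0.12), and 10 fell in its 6 arrays alone.

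For the class difference in response, higher members were 0 to 4 and lower members 0 to 1 without 1 array. Higher members were 5 after quantile normalization, 0 with centred arrays, 6 with centring on tested genes (median 0.10), 1 with no filter, 5 with trend (1 lower), 1 without the 3 arrays, 0 without HL60 (median 0.10), KG1a or MOLM14, and 1 without U937 (2 lower). Over all genes tested, higher calls for this class difference went from 218 to 350 after quantile normalization. They were 138 with centred arrays and 442 with centring on tested genes. The F test over lines called 0 to 5 without 1 array, 2 with centred arrays, 1 with no filter, 7 with trend and 2 without the 3 arrays. The labels do not say whether letters A to C pair the samples. Same-letter deviations from the group means correlated between -0.06 and 0.15, which cannot settle it, since different letters were not compared. With the replicate block 1 member was higher for the class difference and 1 passed the F test, and the other counts stayed within 1.5 times.

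For untreated lines, leaving out HL60 gave 24 lower and 17 higher (median -0.047), and leaving out KG1a gave 24 and 22 (median -0.040). Leaving out MOLM14 gave 40 lower and 10 higher (median -0.28), and leaving out U937 gave 41 and 13 (median -0.24). The cause of these shifts was not tested. Signal over background was not used, and 3 arrays a group limit the precision.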

Other observations

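Of 5 transcripts that share a name with the ribosomal protein genes but encode none of them, 2 rose and 1 fell. The pseudogene MRPS31P5 rose by 0.37 ± 0.05 (SE) on the mean of 4 lines (adjusted p = 1.23e-05 in limma's test), with 0.67 in HL60, 0.55 in U937, 0.13 in MOLM14 and 0.11 in KG1a, while MRPS31 itself measured 0.08 ± 0.04 and did not pass. MRPL45P2 rose by 0.28 ± 0.09 (adjusted p = 0.0254 in limma's test). MRPL42P5 measured 0.20 ± 0.08 and did not pass, beside 0.10 ± 0.06 for MRPL42. The antisense transcript MRPL20-AS1 fell (-0.15 ± 0.04, adjusted p = 0.0114 in limma's test), and MRPL20 measured -0.04 ± 0.06. MRPL23-AS1 lay near the median of all features with a mean of 4.03 and measured -0.03 ± 0.07. Signals of near-identical copies can mix on an array, so these values are uncertain, as are those of the parent genes.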
